A study of Mus musculus with 12 samples.

Results

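Mouse embryonic stem cells were differentiated into neurons in culture, and a WNT agonist was started either at day 8 or at day 11. The comparison rests on 4 of the 12 arrays of the study, 2 of the group CHIR_8-16 and 2 of the group CHIR_11-16, which were chosen by the group given in their titles and paired by replicate number. CHIR_8-16 received the inhibitors until day 8 and then CHIR, an inhibitor of the kinase GSK3 that turns on WNT signalling, at 3 µM until day 16. CHIR_11-16 received the inhibitors until day 11 and then the agonist until day 16, at a dose the labels do not state. The inhibitors, given to both groups from day 0, were 53AH at 2.5 µM against the WNT pathway and LDN193189 at 0.25 µM against BMP receptors, and all cultures were collected at day 16. The labels call the CHIR8 cultures hippocampal, although in the growth protocol the lengths of the stages give an earlier change of medium than day 8. Cultures that got the same inhibitors and no agonist, WiBi_0-11 until day 11 and WiBi_0-16 until day 16, gave another 4 arrays and are used only to place the values. The cells were a male 129/Ola stem cell line, and RNA from 3 sets of experiments was combined in each sample. CHIR_8-16 had 8 days of agonist after 8 days of inhibitors, against 5 days after 11 in CHIR_11-16, so the start of the agonist, its length and the length of inhibition cannot be told apart.

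WNT ligands act through Frizzled receptors to stop the degradation of beta-catenin, which then joins TCF/LEF factors on DNA and switches on target genes, among them feedback inhibitors of the pathway. GSK3 is the kinase that marks beta-catenin for degradation, so inhibiting it mimics a WNT signal. In the embryonic telencephalon WNT proteins come from the cortical hem at the dorsal midline, next to the future hippocampus and the choroid plexus. High WNT signalling goes with dorsal (pallial) identity, and the ventral telencephalon, where the DLX and GSX factors act, makes GABAergic neurons and the first oligodendrocytes.

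Levels are given as the log2 processed signal relative to the 75th percentile of the array, so a level of 0 is that percentile. Differences are CHIR_8-16 minus CHIR_11-16 on the same log2 scale, fitted in limma over the 8 culture arrays with slide as a block, and genes passed at a Benjamini-Hochberg adjusted p under 0.05. Slide 2 carried replicate 1 of each culture group, and slide 3 carried replicate 2. Over genes, the 2 CHIR_8-16 arrays correlated at 0.967 and the 2 CHIR_11-16 arrays at 0.979, while CHIR_8-16 and CHIR_11-16 correlated at 0.985 on slide 2 and 0.988 on slide 3. The arrays of 1 slide were thus more alike across groups than replicates were across slides, and 6184 genes were higher and 2598 lower on slide 3 (limma, adjusted). Nothing in the labels says that replicates came from separate cultures, so the spread behind the p-values may be technical. Between 63.1% and 71.2% of the spots of the 4 arrays were well above background, and the 75th percentile signal ran from 649.4 to 1135.4, both at replicate 1. In these bulk samples fewer cells of a type and less RNA per cell cannot be told apart. The neuronal markers Tubb3, Stmn2, Dcx, Map2 and Snap25 lay at 3.86 to 6.76 on the 4 arrays. The midbrain factor En1 was well above background on 0 of the 8 culture arrays, and Pax5 (2 of 8), Hoxc6 (1 of 8), Cdh5 (1 of 8) and Pou5f1 (3 of 8) were not measured. Other such markers had signal: En2 and Pax7 (midbrain), Csf1r (microglia) and Nanog (pluripotent cells) were well above background on 8 of 8. Hoxb4 (hindbrain) was so on 2 of 8.

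Sp8 and Ibsp fell in CHIR_8-16 relative to CHIR_11-16, and no other of the 25538 genes tested passed (2 called, or 0.00783%). Before adjustment 1828 genes (7.16%) were higher and 1160 (4.54%) lower at p under 0.05. By size, 226 genes (0.885%) were at least 2-fold higher on both slides and 142 (0.556%) at least 2-fold lower, of which 94 and 122 have a gene symbol. The median difference over all genes was 0.04. The calls of Sp8 and Ibsp were lost without the slide block (adjusted p = 0.82 and 0.084), in a fit of only the 4 arrays (0.32 each) and when any 1 of the 8 arrays was left out (0.054 to 0.31 for Sp8 and 0.054 to 0.18 for Ibsp), while both signs held.

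Sp8 is a zinc finger transcription factor of the developing forebrain and limb, present in progenitors of the dorsal ganglionic eminences and in interneurons that come from them. Its level was -3.73 and -2.16 in the 2 CHIR_8-16 cultures, against 1.11 and 1.84 in the CHIR_11-16 cultures. The inhibitor cultures ran from 0.34 to 1.59, so that both CHIR_8-16 arrays lay below all 6 other cultures and the CHIR_11-16 arrays lay above the inhibitor median of 0.94. The difference was -4.42 (SE 0.22, adjusted p = 0.034, n = 2 against 2), 21.4-fold lower, with a 95% interval of -4.97 to -3.88, and both slides showed it. Another passing probe for Sp8 read -3.40 and -3.28 in CHIR_8-16, against -3.02 and -2.21 in CHIR_11-16, a difference of -0.72. The 2 probes point the same way and disagree about the size, and the mean of both gave -2.57 (adjusted p = 0.025).

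Ibsp encodes bone sialoprotein, a matrix protein of mineralising tissue. Its signal was not well above background on either CHIR_8-16 array (-7.65 and -7.13), against -2.20 and -2.45 in CHIR_11-16. The inhibitor cultures ran from -2.62 to -2.03, close to CHIR_11-16. Ibsp was at least 8.31-fold higher in CHIR_11-16 than in CHIR_8-16, taking the lowest signal well above background as the level of a dim array (fitted difference -5.07, SE 0.23, adjusted p = 0.034). A further passing probe was also not well above background in CHIR_8-16 (-6.26 and -6.50), against -3.58 and -3.55 in CHIR_11-16, at least 3.51-fold. Raising dim values to the background limit gave -3.05 (adjusted p = 0.081), the authors' deposited values gave -3.36 (adjusted p = 0.051), and normexp background correction gave -1.75 (adjusted p = 0.044).

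The probes behind these values are shown because they decide the reading: those of Sp8 differ in size of effect, while both of Ibsp lack signal in CHIR_8-16. Positions are mm9, all on the plus strand, and the sequences are from the deposited scanner files, 5′ to 3′. The first Sp8 probe is given whole, and the first 30 of the 60 bases of the others.
Sp8, chr12:120088145-120088204 (difference -0.72): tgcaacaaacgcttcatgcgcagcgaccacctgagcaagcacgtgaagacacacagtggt
Sp8, chr12:120090880-120090939 (difference -4.42): aaacattgtcttgttatgtctaagtgcatt
Ibsp, chr5:104740413-104740472 (difference -5.07): ccccatgaatgatttgtctctgtgaaacat
Ibsp, chr5:104739720-104739779 (at least 3.51-fold): tgctacagccccagagtgatttccgcaaat

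**Figure D1:**
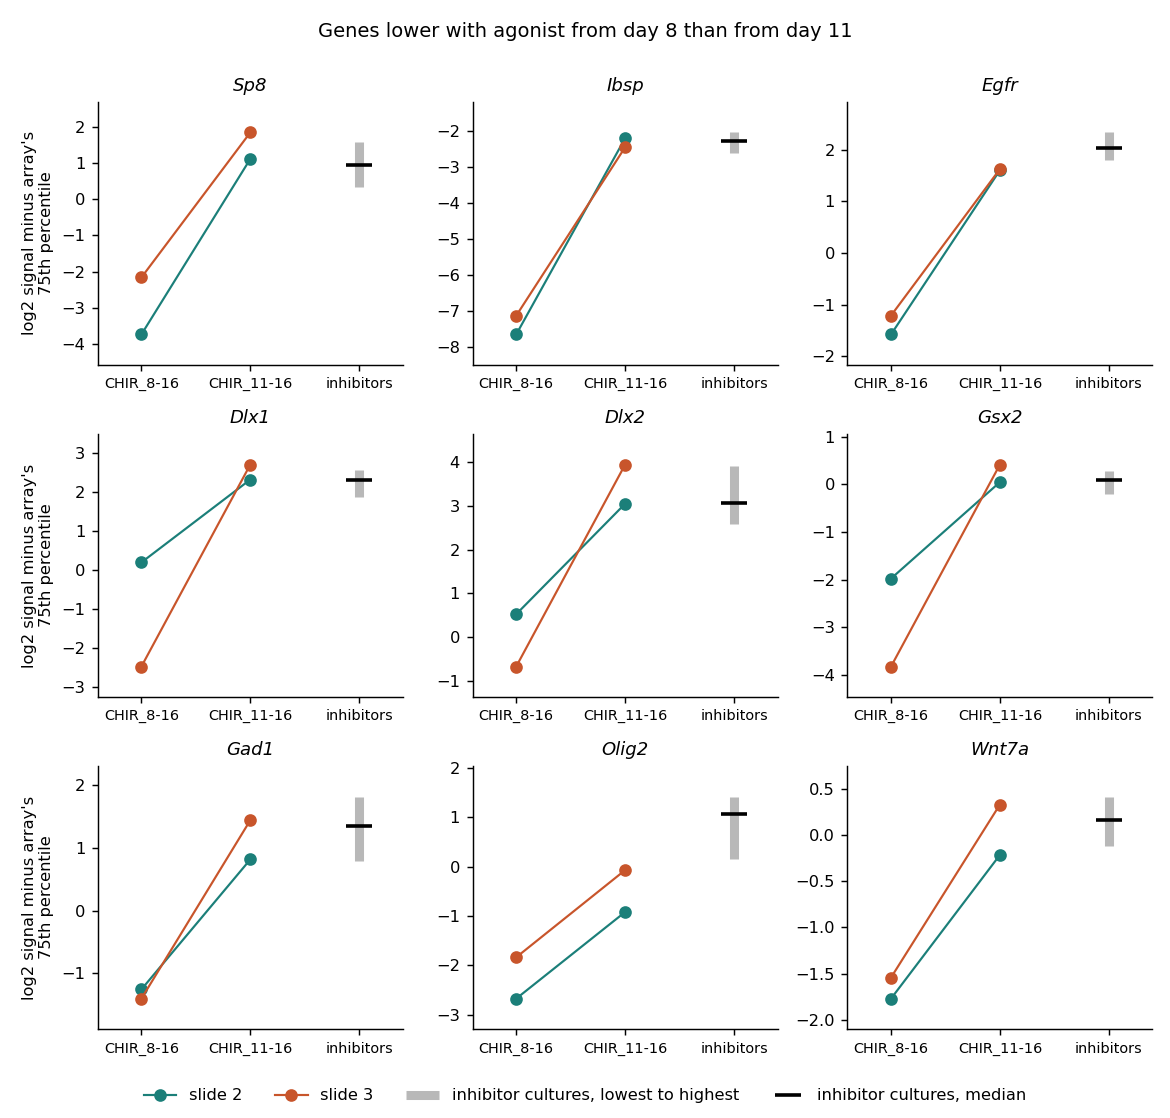
Levels (log2 signal minus the 75th percentile of the array) of 9 genes in CHIR_8-16, CHIR_11-16 and the inhibitor cultures, with a line joining the arrays of 1 slide and a bar from the lowest to the highest of the 4 inhibitor arrays. The 9 were picked as genes lower in CHIR_8-16, and in all of them both CHIR_8-16 points lie below both CHIR_11-16 points. The choice favours that pattern, and 6847 of all 25538 genes were lower on both slides. For Sp8 (difference -4.42) and Ibsp (-5.07) the difference passed the test.

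The genes of the ventral telencephalon and of GABAergic neurons were lower in CHIR_8-16 as a list. Of 33 listed genes 32 were measured, 9 higher and 23 lower, with a median difference of -0.65 (-0.51 on slide 2, -1.15 on slide 3). Sp8 was the only member that passed. At an unadjusted p under 0.05, 5 members were higher and 15 lower, and 11 were at least 2-fold lower on both slides with 0 at least 2-fold higher. The shares of all genes were 7.16% higher and 4.54% lower by that p, and 0.556% lower and 0.885% higher by size. Nkx2-1 was not measured.

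Dlx1 and Dlx2, neighbouring homeobox genes that drive the GABAergic programme, had among the largest differences. Dlx2 was at 0.52 and -0.67 in CHIR_8-16, against 3.05 and 3.94 in CHIR_11-16 and 2.58 to 3.90 in inhibitor cultures (difference -3.57, SE 0.59, adjusted p = 0.18). Dlx1 was at 0.20 and -2.48 in CHIR_8-16, against 2.32 and 2.71 in CHIR_11-16 and 1.88 to 2.56 in inhibitor cultures (-3.66, SE 0.85, adjusted p = 0.28). For both genes the groups do not overlap, and the CHIR_8-16 arrays differ more from each other than the CHIR_11-16 arrays do. Dlx6os1, a noncoding RNA of the Dlx5 and Dlx6 locus, differed by -3.99 (-2.42 and -5.57 on slides 2 and 3), and Dlx5 itself by -2.77 (-1.33 and -4.20). Dlx6 differed by -0.41, with 0.04 on slide 2 and -0.87 on slide 3. Without CHIR_8-16 replicate 1, Dlx1 (-5.25), Dlx2 (-4.65), Dlx6os1 (-5.72) and Gsx2 (-4.26) passed at adjusted p = 0.046 each and Sp8 and Ibsp did not.

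Gsx2, which specifies progenitors of the lateral ganglionic eminence, was at -1.97 and -3.82 in CHIR_8-16, against 0.05 and 0.42 in CHIR_11-16 and -0.20 to 0.29 in inhibitor cultures. It differed by -3.13 (SE 0.61, adjusted p = 0.22), and by -3.59 by another passing probe. Gad1, an enzyme that makes GABA, was at -1.25 and -1.40 in CHIR_8-16, against 0.82 and 1.44 in CHIR_11-16 and 0.79 to 1.82 in inhibitor cultures (-2.46, SE 0.28, adjusted p = 0.12). Its partner enzyme Gad2 differed by -1.20, but by only -0.12 on slide 2. The vesicular GABA transporter Slc32a1 differed by -1.33.

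Sp9, the close relative of Sp8, was at -2.90 and -4.02 in CHIR_8-16, against -1.64 and -1.24 in CHIR_11-16 (difference -2.02, SE 0.51, adjusted p = 0.30). Vax1, a ventral forebrain homeobox gene, was not well above background in CHIR_8-16 and was at least 2.82-fold higher in CHIR_11-16 (adjusted p = 0.28). The neuropeptide gene Npy was likewise at least 3.13-fold higher in CHIR_11-16 (adjusted p = 0.13), and both CHIR_11-16 levels (-4.23 and -3.22) lay below the inhibitor cultures (-2.06 to -0.86). Lhx8, a factor of cholinergic and medial eminence neurons, was above background in CHIR_11-16 alone (-7.88 and -7.08 in CHIR_8-16, -5.77 and -5.09 in CHIR_11-16), and with dim values raised to the background limit its difference was 0.05 in place of -2.05. Lhx8 thus passed the filter only through CHIR_11-16, which favoured its direction.

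Other members of the list did not follow. Lhx6, a factor of medial eminence interneurons, was at 4.48 and 3.34 in CHIR_8-16, against 3.32 and 3.11 in CHIR_11-16 (0.70, adjusted p = 0.42), while another of its probes differed by -1.07. Six3, Zfhx3 and Foxp1 were higher by 0.86, 0.88 and 0.65. The neuropeptide genes Sst and Tac1 differed by -0.59 and 0.66.

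Egfr, the receptor of epidermal growth factor that is found on late progenitors and glial precursors, had a difference close to the threshold. Its probe at mm9 chr11:16813815-16813874 read -1.58 and -1.21 in CHIR_8-16, against 1.61 and 1.63 in CHIR_11-16 and 1.81 to 2.34 in inhibitor cultures. The difference was -3.01 (SE 0.20, adjusted p = 0.084; -3.18 and -2.84 on slides 2 and 3), 8.06-fold lower, and its other passing probes gave -1.81 and -1.58. It passed in a fit of the authors' deposited values (adjusted p = 0.041) and with a trended prior (adjusted p = 0.005).

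The oligodendrocyte factors Olig1 and Olig2 and the precursor receptor Pdgfra were lower too. Olig2 was at -2.67 and -1.83 in CHIR_8-16, against -0.92 and -0.07 in CHIR_11-16 and 0.16 to 1.42 in inhibitor cultures (-1.76, SE 0.32, adjusted p = 0.21). The 3 sets of cultures stand in order without overlap, CHIR_8-16 lowest. Olig1 differed by -2.20 (adjusted p = 0.25) and Pdgfra by -2.59 (adjusted p = 0.18). Sox10, a factor of committed oligodendrocyte cells, differed by -0.35 (adjusted p = 0.47). The list of oligodendrocyte lineage and astrocyte genes split evenly, 10 higher and 10 lower (median -0.11), and the astrocyte glutamate transporter Slc1a2 was higher by 1.19 (0.42 and 0.29 in CHIR_8-16, against -0.86 and -0.81 in CHIR_11-16; adjusted p = 0.14).

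The list of WNT targets had a median close to that of all genes. Of 24 listed genes 21 were measured, 12 higher and 9 lower, with a median difference of 0.09, and Sp8 was the member that passed. Sp5, a direct target of beta-catenin, was at 0.11 and 0.65 in CHIR_8-16 and at 0.72 and 0.26 in CHIR_11-16, against -5.63 to -1.62 in inhibitor cultures. The ranges of the agonist groups overlap for Sp5 and both lie above every inhibitor array (difference -0.11, SE 0.59, 95% interval -1.6 to 1.38). The feedback inhibitor Axin2 was at -0.59 and 0.70 in CHIR_8-16, against -0.38 and -0.55 in CHIR_11-16 (0.53, adjusted p = 0.56), with opposite signs on the 2 slides. Another passing Axin2 probe read -2.62 and -2.82 in CHIR_8-16, against -3.69 and -4.28 in CHIR_11-16, a difference of 1.27, without overlap. Nkd1, another feedback inhibitor, differed by 0.68 (adjusted p = 0.35), and by 1.20 by another probe, and the TCF family member Tcf7 by -0.54 (adjusted p = 0.64).

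Lef1, the TCF/LEF factor expressed in the hippocampal field, was higher, as were Axin2 and Nkd1 by their other probes (1.27 and 1.20). The Lef1 probe at mm9 chr3:130926200-130926259 read 4.22 and 3.36 in CHIR_8-16, against 2.78 and 1.79 in CHIR_11-16 and 0.28 to 1.88 in inhibitor cultures. The difference was 1.50 (SE 0.22, adjusted p = 0.14), 2.83-fold, with 1.44 and 1.57 on slides 2 and 3 and 1.29 by another passing probe. The secreted antagonist Wif1 was higher by 1.10 (adjusted p = 0.47) and another, Dkk1, lower by 0.89.

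Among 39 measured WNT ligands, receptors and modulators 27 were higher and 12 lower (median 0.17), with 0 called (limma). At an unadjusted p under 0.05, 4 were higher and 6 lower, beside 7.16% and 4.54% of all genes. Wnt8b, a ligand of the hem and medial pallium, was at -0.46 and 1.77 in CHIR_8-16, against -1.81 and -1.89 in CHIR_11-16 and -1.51 to -0.81 in inhibitor cultures. It differed by 2.51 (SE 0.68, adjusted p = 0.32; 1.35 and 3.67 on slides 2 and 3), and by 1.40 by another probe. Wnt10a differed by 1.56 (-1.66 and -2.69 in CHIR_8-16, against -3.72 and -3.75 in CHIR_11-16; adjusted p = 0.45).

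Wnt7a, a ligand of cortical progenitors, went the other way. It was at -1.77 and -1.54 in CHIR_8-16, against -0.22 and 0.33 in CHIR_11-16 and -0.12 to 0.42 in inhibitor cultures (-1.71, SE 0.15, adjusted p = 0.097). The antagonist Sfrp1 was lower by 1.32 (adjusted p = 0.15). Frat2 and Frat1, which bind GSK3 and promote WNT signalling, were lower by 1.45 (adjusted p = 0.13) and 0.69 (adjusted p = 0.22), although another Frat2 probe gave 0.18.

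Because Sp8 and Sp9 had lower values and Sp5 did not, the letters upstream of these 3 genes are shown. Each is the 250 bases before a gene start, from RefSeq (GRCm38.p6), plus strand, with matches to the TCF/LEF motif CTTTGAT or CTTTGAA in capitals on either strand (TTCAAAG is CTTTGAA read on the other strand).
Sp5, chr2:70474673-70474922: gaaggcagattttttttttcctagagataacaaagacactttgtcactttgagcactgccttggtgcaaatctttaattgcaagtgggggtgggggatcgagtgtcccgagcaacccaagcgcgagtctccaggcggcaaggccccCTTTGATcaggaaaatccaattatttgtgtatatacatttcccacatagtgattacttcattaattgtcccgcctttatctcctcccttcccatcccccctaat
Sp8, chr12:118846983-118847232: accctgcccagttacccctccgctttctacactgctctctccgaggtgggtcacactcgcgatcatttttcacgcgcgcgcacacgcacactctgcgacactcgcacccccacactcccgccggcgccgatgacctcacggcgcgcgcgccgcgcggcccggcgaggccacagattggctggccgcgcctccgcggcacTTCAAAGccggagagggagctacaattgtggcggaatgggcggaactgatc
Sp9, chr2:73271676-73271925: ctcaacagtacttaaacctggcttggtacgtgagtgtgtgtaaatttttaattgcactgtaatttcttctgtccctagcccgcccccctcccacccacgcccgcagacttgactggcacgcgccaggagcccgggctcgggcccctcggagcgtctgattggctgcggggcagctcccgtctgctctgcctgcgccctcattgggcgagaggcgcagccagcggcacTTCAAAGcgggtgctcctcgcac
The match ends 97 bases before the start of Sp5, 44 before that of Sp8 and 16 before that of Sp9. The Sp8 gene has 3 annotated starts. Only stretches that held a match are shown, which left 1 for Sp8. The Sp8 and Sp9 stretches share a run of 15 letters around it, gcggcacTTCAAAGc. The motif was present in 7.48% of 32851 such stretches. By gene, 28.6% of 14 WNT targets with a stretch held it (Dkk1, Sp5, Sp8 and Tnfrsf19). So did 16.7% of 24 genes of the ventral telencephalon and GABAergic list (Foxp1, Sp8, Sp9 and Vax1). The share was 11.5% of 87 genes at least 2-fold higher on both slides and 9.18% of 98 genes at least 2-fold lower, against 6.73% of 13055 genes tested. Another motif, that of homeodomain (homeobox) factors, was counted in the same stretches. It was also in 11.5% of the higher genes, against 3.85% of genes tested, and its share in the lower genes was above 3.85% too. Shares above that of genes tested were thus not particular to the TCF/LEF motif. A match describes these letters and shows no binding.

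**Figure D2:**
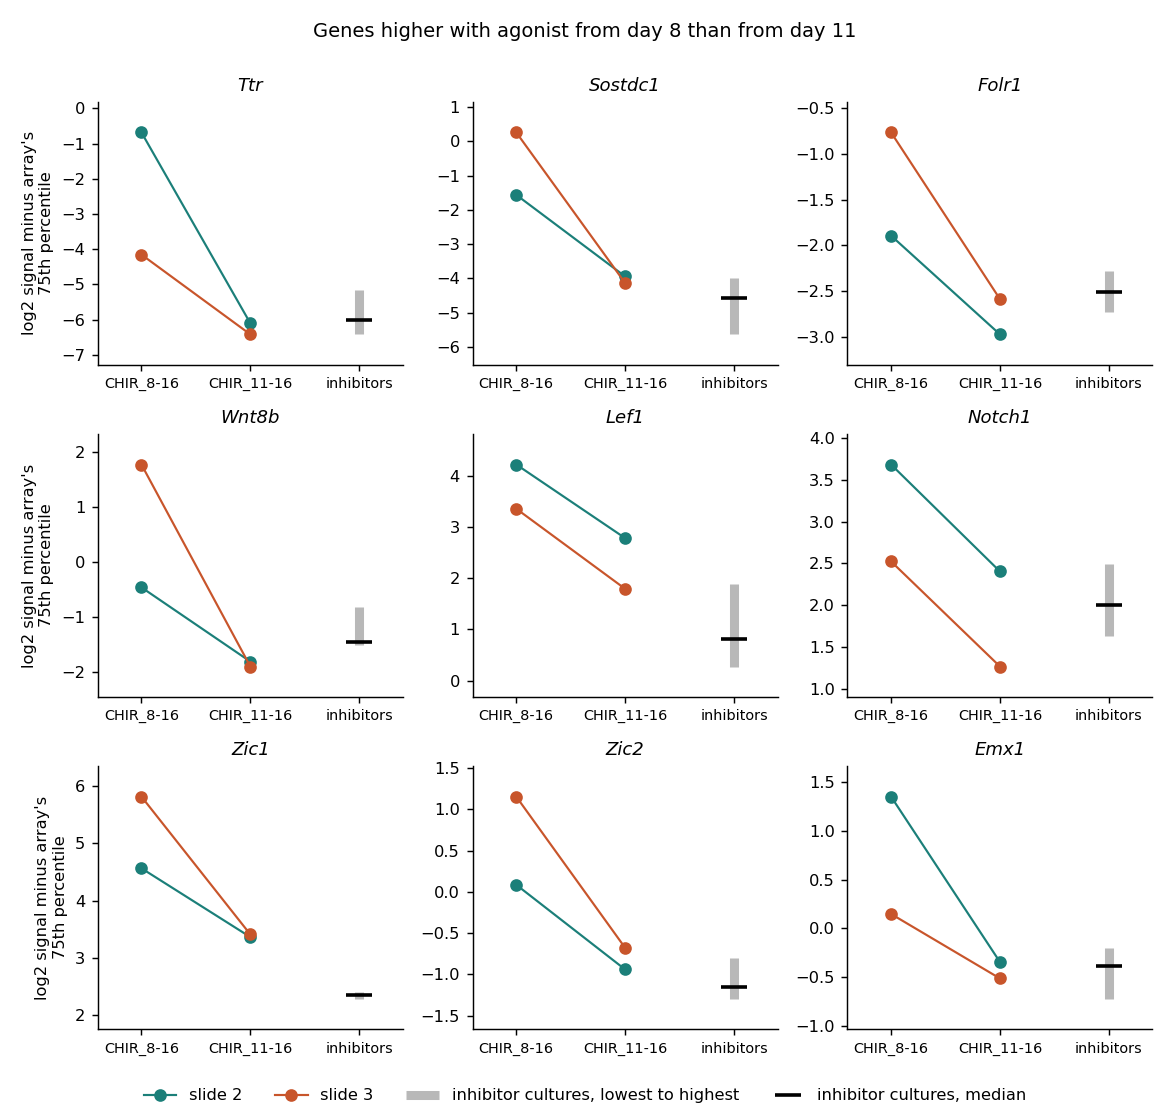
Levels (log2 signal minus the 75th percentile of the array) of 9 genes of the hem and choroid plexus, the WNT pathway, the Zic family and the pallium in CHIR_8-16, CHIR_11-16 and the inhibitor cultures, with a line joining the arrays of 1 slide. The slide lines of Lef1 and Notch1 run side by side (1.44 and 1.57, 1.28 and 1.25), whereas those of Ttr differ (5.42 on slide 2 and 2.27 on slide 3). None of the 9 passed the test.

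Genes of the cortical hem, roof plate and choroid plexus were higher in CHIR_8-16 mainly on slide 3. Of 16 measured, 13 were higher and 3 lower (median 0.27), with a median of -0.10 on slide 2 and 0.86 on slide 3. None passed (limma), and 4 were higher and 2 lower at an unadjusted p under 0.05, beside 7.16% and 4.54% of all genes. Sostdc1, a secreted inhibitor of BMP and WNT signals, was at -1.56 and 0.26 in CHIR_8-16, against -3.95 and -4.14 in CHIR_11-16 and -5.64 to -3.98 in inhibitor cultures. It differed by 3.39 (SE 0.47, adjusted p = 0.13), 10.5-fold, and by 3.71 by another probe. Ttr, transthyretin of the choroid plexus, was at -0.68 and -4.15 in CHIR_8-16, against -6.10 and -6.42 in CHIR_11-16 (3.85, SE 0.96, adjusted p = 0.30). It was well above background on only 1 of the CHIR_11-16 arrays and 1 inhibitor array, so it passed the filter only through CHIR_8-16. The folate receptor gene Folr1 was higher by 1.45 (adjusted p = 0.26), while another of its probes gave 0.14.

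The Zic genes are zinc finger factors of the dorsal midline, medial pallium and Cajal-Retzius cells, and none of them passed the test. Zic1 was at 4.56 and 5.82 in CHIR_8-16, against 3.36 and 3.41 in CHIR_11-16 and 2.29 to 2.40 in inhibitor cultures (1.81, SE 0.35, adjusted p = 0.22). The order of the 3 sets of cultures has no overlap, CHIR_8-16 highest. Zic2 differed by 1.43 (adjusted p = 0.26) and Zic4 by 2.44 (adjusted p = 0.43), and Foxd1, a factor of the diencephalon, by 1.77 (adjusted p = 0.24). All 4 are in the diencephalon and hypothalamus list, whose 22 measured members were 10 higher and 12 lower (median -0.12), with -0.29 on slide 2 and 1.24 on slide 3.

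Cajal-Retzius cells are early neurons of the cortical surface that secrete reelin, many of them born at the hem. Of 16 measured genes 12 were higher and 4 lower (median 0.45), and 7 were higher and 1 lower at an unadjusted p under 0.05, with 0 called (limma). The shares of all genes at that p were 7.16% higher and 4.54% lower. Reln itself was at 1.34 and 0.25 in CHIR_8-16, against 0.26 and -0.15 in CHIR_11-16 (0.74, adjusted p = 0.35), and the ranges overlap slightly. Nhlh2 differed by 1.41, Ndnf by 1.27 and Ebf2 by 1.12, whereas Trp73, which defines the hem-derived cells, differed by 0.13.

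**Figure D3:**
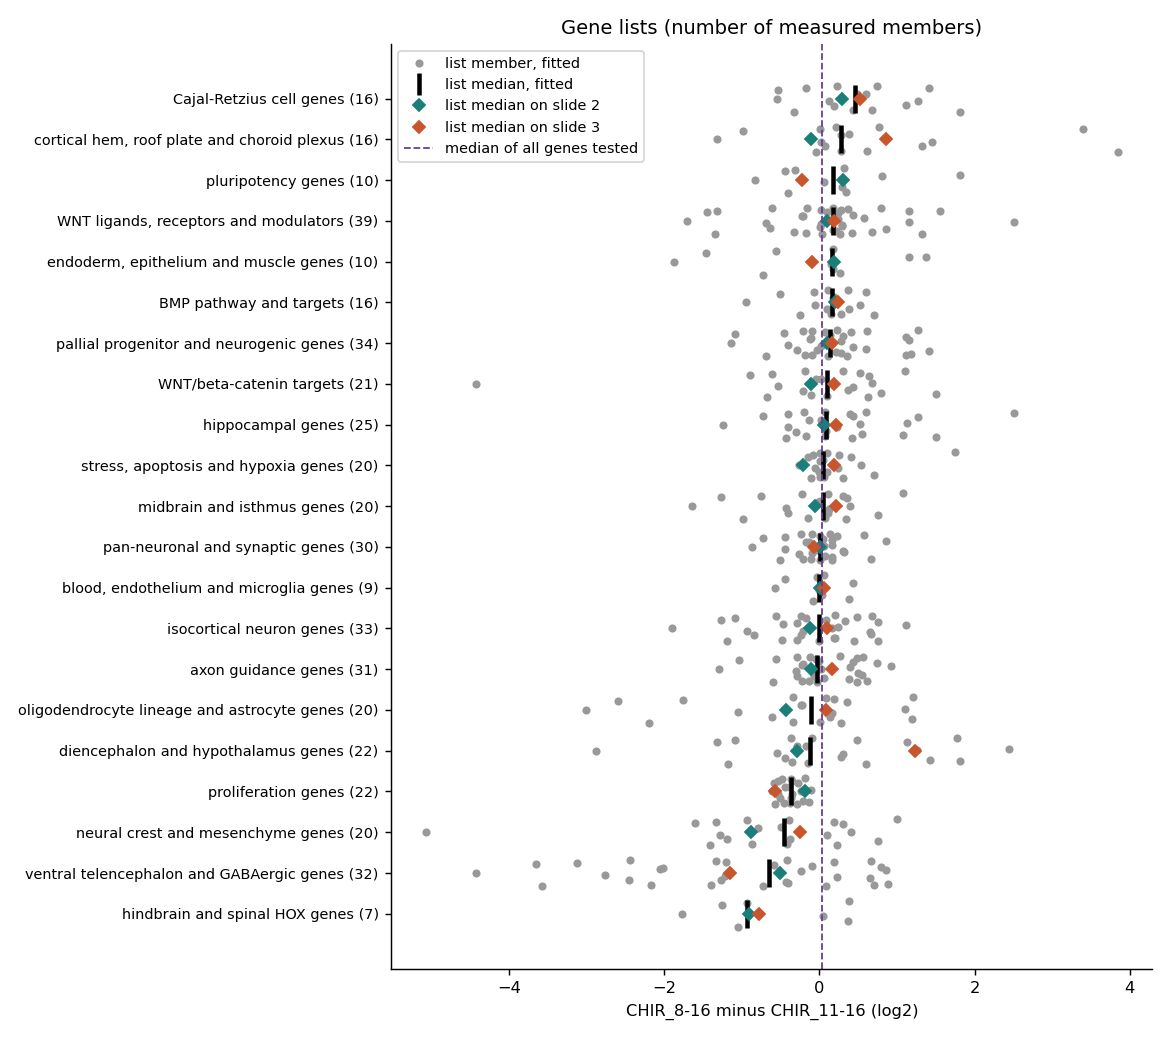
Fitted difference (log2, CHIR_8-16 minus CHIR_11-16) of each measured member of 21 gene lists, with the list median over both slides and on each slide, and the median of all genes (0.04) as a dashed line. The ventral telencephalon and GABAergic list (-0.65) and the proliferation list (-0.37) lie to the left on both slides, while the diencephalon list (-0.29 on slide 2 and 1.24 on slide 3) differs between slides.

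Pallial genes differed little as lists. The pallial progenitor and neurogenic list had 21 of 34 measured genes higher (median 0.14), the isocortical neuron list 16 of 33 (median -0.01) and the hippocampal list 16 of 25 (median 0.09), with 0 called in each (limma). At an unadjusted p under 0.05 these lists had 7 higher and 4 lower, 4 higher and 7 lower, and 9 higher and 2 lower, in the same order. All genes had 7.16% higher and 4.54% lower at that p. Median scaling turned the pallial progenitor and hippocampal medians to -0.02 and -0.07, with the median of all genes at -0.12.

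Within them, several dorsal progenitor genes were higher. Neurog2, the proneural factor of pallial progenitors, was at 2.31 and 2.44 in CHIR_8-16, against 1.36 and 1.09 in CHIR_11-16 and -1.54 to -0.39 in inhibitor cultures (1.15, SE 0.25, adjusted p = 0.26). The cortical homeobox gene Emx1 was at 1.35 and 0.15 in CHIR_8-16, against -0.35 and -0.52 in CHIR_11-16 (1.18, adjusted p = 0.30). The receptor gene Notch1 differed by 1.27 (adjusted p = 0.18; 1.28 and 1.25 on the slides), although another of its probes gave -0.10. Otx1, a homeobox gene of progenitors and deep-layer neurons, was at -3.11 and -2.90 in CHIR_8-16, against -4.26 and -3.97 in CHIR_11-16 and -5.89 to -5.13 in inhibitor cultures (1.11, SE 0.15, adjusted p = 0.13).

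The factors that name hippocampal fields did not differ in 1 direction. Prox1, of dentate granule neurons, was at -2.24 and -2.09 in CHIR_8-16, against -1.98 and -1.76 in CHIR_11-16 (-0.30, 95% interval -0.62 to 0.01). Zbtb20, of hippocampal pyramidal neurons, differed by -0.41 (adjusted p = 0.39), Emx2 by 0.60 (adjusted p = 0.36) and Lhx2 by 0.43 (adjusted p = 0.51). Calb1, the calcium binding protein calbindin, was higher by 1.27 (adjusted p = 0.24; 1.30 and 1.23 on the slides). Pax6, Eomes and Neurod1, which follow each other in pallial neurogenesis, differed by -0.18, 0.30 and 0.03.

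Cortical neuron genes split. Tbr1, of early deep-layer neurons, was at 5.28 and 5.18 in CHIR_8-16, against 4.76 and 4.34 in CHIR_11-16 (0.68, SE 0.15, adjusted p = 0.25), and the inhibitor cultures (4.71 to 5.17) overlapped CHIR_11-16. Fezf2 and Bcl11b, of subcerebral projection neurons, differed by 0.44 and -0.21. Mef2c was lower by 1.90 (adjusted p = 0.13) and Ldb2 by 1.26 (adjusted p = 0.23).

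All 22 measured proliferation genes were lower in CHIR_8-16, 21 of them on both slides, with a median of -0.37, and 0 passed (limma, 3 at an unadjusted p under 0.05). Over all genes tested 11384 of 25538 were lower, 6847 on both slides and 4.54% at that p. Top2a, a topoisomerase of dividing cells, was at 1.46 and 1.40 in CHIR_8-16, against 2.04 and 2.04 in CHIR_11-16 (-0.61, SE 0.20, adjusted p = 0.38), with inhibitor cultures at 0.71 to 1.42. Mki67, the Ki-67 antigen of cycling cells, was at 3.99 and 3.20 in CHIR_8-16, against 4.17 and 3.81 in CHIR_11-16 (-0.39, adjusted p = 0.63), and the groups overlap. The list median was -0.19 on slide 2 and -0.57 on slide 3, and -0.06 without CHIR_8-16 replicate 2.

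Among 20 measured genes of the neural crest and mesenchyme 13 were lower (median -0.46) and Ibsp passed. Their summed level was 3.72 to 3.73 in CHIR_8-16, against 3.67 to 4.10 in CHIR_11-16, and its part in the Ibsp result was not tested. The collagen genes Col1a1 and Col3a1 and the matrix gene Postn were lower by 1.33 (adjusted p = 0.43), 1.19 (adjusted p = 0.28) and 1.60 (adjusted p = 0.39), whereas the mesenchymal factor Twist1 differed by 0.09. Only 7 of 24 HOX genes of hindbrain and spinal cord were measured (median -0.94, but 0.37 over probes well above background on all 8 arrays). Hoxb4 and Hoxd8 were not well above background in CHIR_8-16 or on any inhibitor array. Both passed the filter only through CHIR_11-16, where they are high, so the filter favoured their direction, also within the median. The lists not described above had medians from -0.04 to 0.18 with 0 called (limma), and pan-neuronal and synaptic genes were at 0.00.

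Beyond the lists, large differences that were at least 2-fold on both slides included Ptx3, a secreted pentraxin (-3.57, adjusted p = 0.11), Npas1, a factor of GABAergic neurons (-3.18, adjusted p = 0.26), and Tfap2d (-2.98, adjusted p = 0.25). On the higher side were Cyct, a cytochrome c of testis (at least 4.77-fold, adjusted p = 0.33), Wfdc2 (2.69, adjusted p = 0.48), Prex2 (2.58, adjusted p = 0.33), Dapl1 (2.51, adjusted p = 0.36), Cpm, a membrane carboxypeptidase (2.37, adjusted p = 0.13), and Msrb3 (at least 3.53-fold, adjusted p = 0.27). Npas1 and Tfap2d were well above background on only 1 of the 2 CHIR_8-16 arrays, and Wfdc2 and Dapl1 on only 1 of the 2 CHIR_11-16 arrays, so the sizes of these differences rest partly on dim signals. Cyct was well above background on 0 of the CHIR_11-16 and inhibitor arrays, and differed by 5.59 and 1.28 on slides 2 and 3. Cyct, Dapl1 and Wfdc2 passed the filter only through CHIR_8-16, where they are high, so the filter favoured their direction. Cpm was at -0.75 and 0.69 in CHIR_8-16, against -2.67 and -2.13 in CHIR_11-16, without overlap.

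Single arrays carried much of the rest. Of 205 genes at least 4-fold higher in CHIR_8-16 on slide 2, 155 were within 2-fold on slide 3, and 11 were at least 4-fold higher on both. Of 130 such genes on slide 3, 85 were within 2-fold on slide 2. On the lower side 25 genes were at least 4-fold lower on both slides, of 106 on slide 2 and 151 on slide 3. Dbx1, a progenitor factor of the diencephalon and spinal cord, was at -6.03 and 1.26 in CHIR_8-16, against 2.03 and -1.04 in CHIR_11-16, and its sign differs between slides (-8.06 and 2.30). Dbx1 was well above background on only 1 of the CHIR_8-16 arrays. The peptide hormone gene Adm also differed in sign (-0.43 and 3.92 on slides 2 and 3), with a level of 0.81 in CHIR_8-16 replicate 2 against -5.23 to -3.11 on the other 3 agonist arrays.

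**Figure D4:**
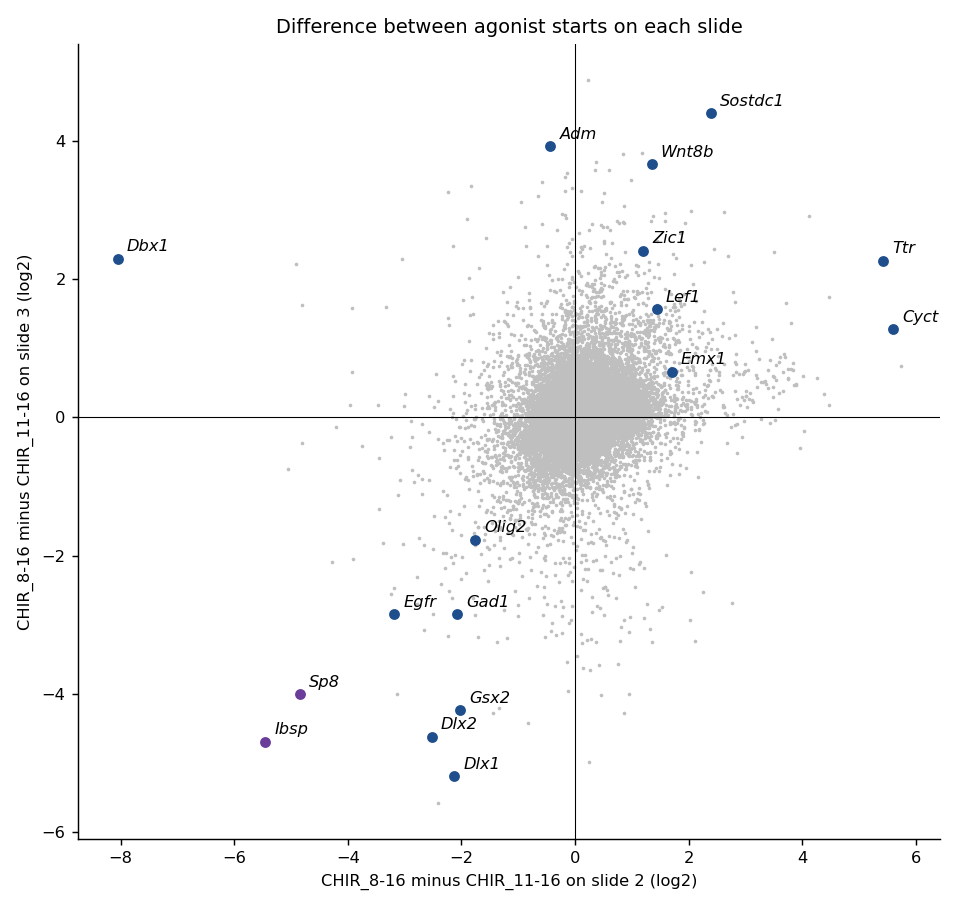
Difference between CHIR_8-16 and CHIR_11-16 (log2) on slide 2 (horizontal) and slide 3 (vertical) for all 25538 genes, with 17 genes named. Sp8 and Ibsp lie low on both slides, Dlx1, Dlx2 and Gsx2 lie lower on slide 3, and Dbx1 and Adm have opposite signs on the slides.

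Against the inhibitor cultures, CHIR_8-16 differed in 701 genes, 355 higher (1.39%) and 346 lower (1.35%), and CHIR_11-16 in 0 (limma, smallest adjusted p = 0.084, with 4946 genes at an unadjusted p under 0.05, 0 without the block, and 1053 with a trended prior). The 701 became 4 without the block and 0 to 369 with 1 array left out. Both counts come from the same 4 inhibitor arrays. The difference between these effects is the comparison of the starts itself, which called 2 genes, so the counts do not show that the other genes responded to 1 start alone.

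Sp5 was 4.14 above the inhibitor cultures in CHIR_8-16 (adjusted p = 0.032) and 4.25 above in CHIR_11-16 (adjusted p = 0.089). Neurog2 was 3.35 above in CHIR_8-16 (adjusted p = 0.013) and 2.20 above in CHIR_11-16 (adjusted p = 0.089). Lef1 was 2.84 above in CHIR_8-16 (adjusted p = 0.013) and 1.34 above in CHIR_11-16 (adjusted p = 0.095). For these WNT and proneural genes both starts lie on the same side of the inhibitor cultures.

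Sp8 was at -3.90 relative to the inhibitor cultures in CHIR_8-16 (adjusted p = 0.01) and at 0.52 in CHIR_11-16 (adjusted p = 0.23). Dlx2 was at -3.23 in CHIR_8-16 (adjusted p = 0.047) and at 0.34 in CHIR_11-16 (adjusted p = 0.75), and Gad1 at -2.66 (adjusted p = 0.025) and -0.20 (adjusted p = 0.68). Egfr was at -3.45 in CHIR_8-16 (adjusted p = 0.01) and -0.44 in CHIR_11-16 (adjusted p = 0.26). The median of the ventral list was -0.83 in CHIR_8-16 and 0.03 in CHIR_11-16. For Frat1 (-2.76 and -2.06) and Olig1 (-4.95 and -2.75) both values lie below the inhibitor cultures, CHIR_8-16 farther. The proliferation list had a median of 0.32 in CHIR_8-16 and 0.72 in CHIR_11-16, and 0 of its genes were called in either (limma).

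**Figure D5:**
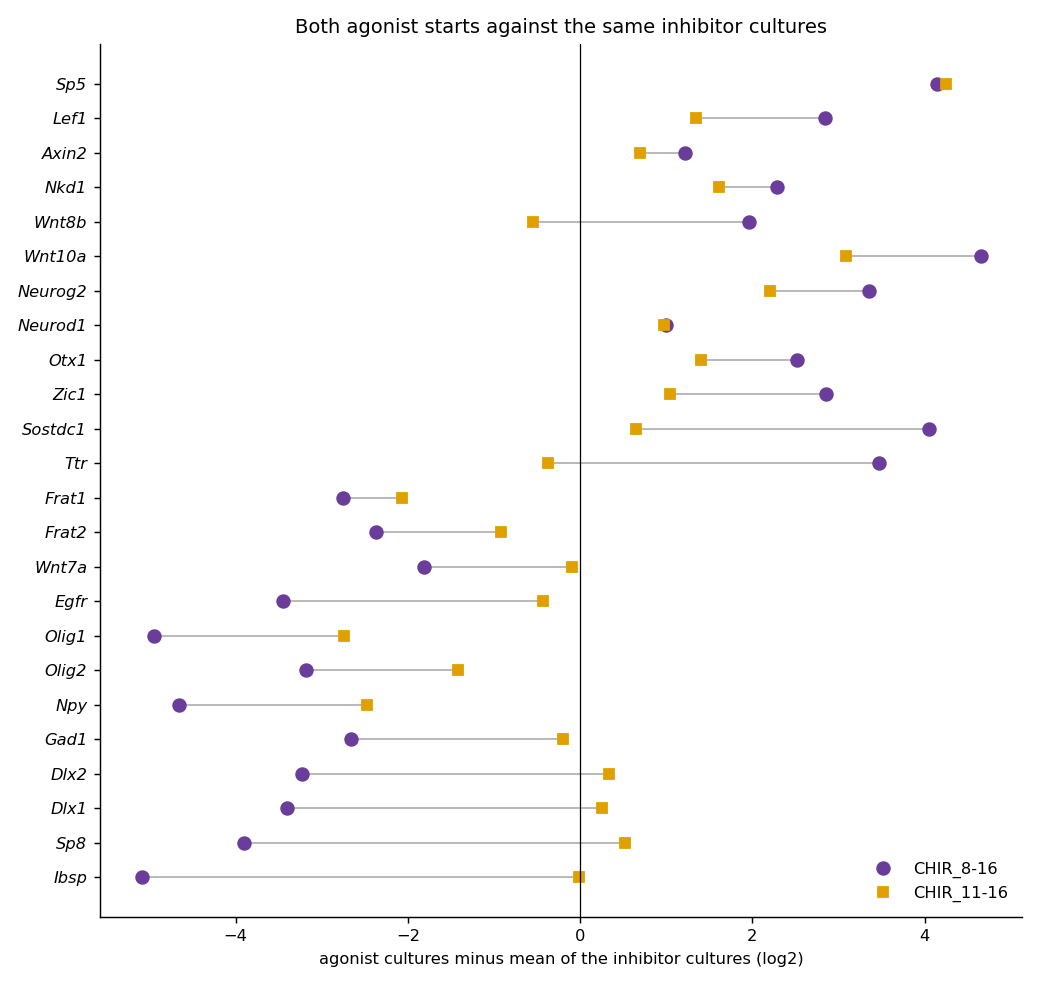
Difference of CHIR_8-16 (circles) and of CHIR_11-16 (squares) from the mean of the same 4 inhibitor cultures (log2) for 24 genes. Sp5 has both values near 4 (4.14 and 4.25), whereas Sp8 (-3.90 and 0.52) and Ibsp (-5.09 and -0.02) have only the CHIR_8-16 value far from 0. The CHIR_8-16 signals of Ibsp and Npy were not well above background.

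The embryonic tissues of the study, 1 array each of E15 cortex, hippocampus, ventral telencephalon and midbrain, place these genes in the brain, with no spread known. Of 165 tested genes at least 2-fold higher in ventral telencephalon than in each of the other 3 tissues, 18 were at least 2-fold lower in CHIR_8-16 on both slides and 1 at least 2-fold higher, against 0.556% and 0.885% of all genes. At an unadjusted p under 0.05, 14 were higher and 34 lower, and the median of the 165 was -0.06. Beside the Dlx genes, Gsx2, Vax1, Sp9 and Lhx8, the 18 included, chosen after their values were seen, Gda, a guanine deaminase (-2.70), Chrm1, a muscarinic receptor (-2.36), and Dio3, a deiodinase (-2.14). Lhx8 counts among the 18 although it passed the filter only through CHIR_11-16, which favoured its direction.

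Genes highest in E15 hippocampus (281) had a median of 0.15, with 9 at least 2-fold higher on both slides and 5 lower, and those highest in E15 cortex (144) a median of 0.20, with 2 and 2. Wnt8b and Wnt10a, at 1.04 and -0.28 in hippocampus against -7.32 and -7.70 in cortex, were among the 9. Ibsp was among the 5, being brightest in hippocampus (-2.54) of the 4 tissues, and so was Tac2, a tachykinin (-1.85). The 1160 genes that exceeded cortex by 2-fold or more in hippocampus had a median of 0.08, with 34 at least 2-fold higher on both slides and 35 at least 2-fold lower. The 872 genes with the opposite contrast had a median of 0.19, with 56 at least 2-fold higher on both slides and 19 at least 2-fold lower. At an unadjusted p under 0.05, 190 of these 872 were higher and 67 lower. Over all genes 7.16% were higher and 4.54% lower by that p, and 0.885% and 0.556% by size. Genes highest in E15 midbrain (752) also had a median above 0 (0.14), with 44 at least 2-fold higher on both slides and 26 lower.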

How the data were processed

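Gene expression was measured on 1-colour Agilent arrays with 60-base probes placed on mm9. The deposited scanner files hold background-corrected processed intensity, written by Feature Extraction 10.7.3.1 per the file headers (the submitters' processing notes give 9.1, and limma). The authors' deposited table holds log2 values of the same arrays and served as an alternative. Spots marked as outliers were dropped, processed intensity was turned to log2 minus the 75th percentile of each array, and spots of 1 probe were averaged. Probes had to be well above background on each array of some culture group and to have an unmarked spot on all 8, which left 36430 of 55681. The brightest probe stood for a gene, leaving 25538 genes, 14999 with a symbol.

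limma 3.58.1 in R 4.3.3 (lmFit and eBayes, 2-sided) fitted 1 mean per group and a slide block over the 8 cultures, with Benjamini-Hochberg adjustment. Arrays of the same replicate number lie on 1 slide per the headers, and their deviations from the group means correlated at 0.58 to 0.67 in all 6 pairs of groups. Named genes were the called genes, up to 4 called or else 3 largest members of each list, anchor genes, and the 10 largest differences in each direction at least 2-fold on both slides. Further list members and the genes placed by E15 tissue were named after their values were seen. Members, lists and tests were chosen with earlier results of these data known. The normexp alternative used median signals, since the culture files lack the mean signals first planned. The fit was tested on simulated data with independent noise on each array. It called 14 of 50 genes changed by 1 on the log2 scale, 46 of 50 changed by 2, and 12 unchanged genes. Noise of that kind cannot show whether the calls in these arrays hold. Python 3.11.15 made the figures. A few genes are not reported here. The number of arrays limits the precision.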

Additional observations from a re-analysis of the deposited data

Results flagged for a closer look

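The test of the difference between CHIR_8-16 and CHIR_11-16 itself singled out Ibsp and Sp8. Ibsp differed by -5.07 (limma, adjusted p = 0.034), with the CHIR_8-16 signal not well above background on 2 of 2 arrays. Sp8 differed by -4.42 (limma, adjusted p = 0.034), and was lower on 2 of 2 slides.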

How the results depend on the processing

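In the comparison of the starts, the 2 calls became 0 with no replicate block, 0 with only the 4 arrays compared, 0 with no filter on dim probes, 1 (Sp8) with dim values raised to the background limit (an alternative chosen after seeing the data), 5 with the authors' values, 34 with normexp and 72 with a trended prior (47 higher and 25 lower). Leaving out 1 array gave 0 to 4 calls, with Dlx1, Dlx2, Dlx6os1 and Gsx2 the 4 without CHIR_8-16 replicate 1. Median and quantile scaling kept 2, and median scaling put the median of all genes at -0.12.

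Without the block the estimates are -5.07 for Ibsp and -4.42 for Sp8 by construction. Over all alternatives Ibsp ran from -5.44 to -1.75 (normexp), with -3.36 (adjusted p = 0.051) in the authors' values and no value under the filter on all 8 arrays, and Sp8 from -4.73 to -2.57 (mean of probes). For CHIR_8-16 against the inhibitor cultures the 701 calls became 4 with no replicate block, 0 with no filter, 1658 with normexp, 1679 with probes above background on all 8 arrays, 3112 with a trended prior and 0 to 369 with 1 array left out. The split of 355 higher and 346 lower was 268 and 484 under median scaling and 299 and 426 under quantile scaling. For CHIR_11-16 the 0 calls became 1 with probes above background on all 8 arrays (Frat1), 2 with dim values raised, 214 with normexp, 1053 with a trended prior and 0 to 1 with 1 array left out. The causes were not tested.

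Of 1932 recomputed values of 103 named genes 19 changed sign, in 12 genes. Of 27 list medians 20 changed sign under some alternative, while the ventral list kept -1.20 to -0.47 and the proliferation list -0.71 to -0.06.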
